A study of Cervus nippon with 12 samples.

Results

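The miR-29 family was followed in small RNA libraries of cultured sika deer antler cells. Its members were taken by name, as every listed cattle miRNA (bta-) with the number 29, a letter and any arm suffix, and this gave 5 of the 545 listed names, miR-29a, miR-29b, miR-29c, miR-29d-3p and miR-29d-5p. The rule used no measured value.

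miR-29 miRNAs bind the 3′ untranslated regions of many matrix mRNAs, among them those of fibrillar collagens, elastin and fibrillin, and thereby lower the output of matrix protein. In connective tissues they are known as a brake on collagen deposition that falls during fibrosis, and they also act on DNA methyltransferases. In mammals the miR-29a gene lies beside a copy of miR-29b, and the miR-29c gene lies beside another copy of miR-29b, so that miR-29b can come from either transcript. miR-29d-5p is named for the opposite arm to miR-29d-3p and is counted here as a member by name only. Whether it binds the same mRNAs was not examined.

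The libraries came from reserve mesenchyme cells (RMCs), the stem-like cells of the antler growth tip, held in chondrogenic medium for 0 (CP_0), 7 (CP_7) or 14 days (CP_14), and from antler chondrocytes (CC), the cartilage cells of the same organ. Each group had 3 libraries, and all cells were wild type and cultured from antlers of healthy male deer 3 years of age. The labels tie no library to a deer and do not state whether the libraries of a group came from separate animals, so p-values measure the spread between these libraries. The deposited values are RPM, each miRNA's reads scaled to a library total of 1000000 reads on listed miRNAs and not divided by length, and the reads behind them were recovered as whole numbers.

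Depth ran from 539455 reads in a CP_7 library to 10256572 in a CC library. miR-21-5p alone took 23.2% ± 1.62 (SD, n = 3) of the reads of CP_7 and 75.2% ± 2.04 of those of CC, and a smaller share of miR-21-5p raises the RPM of every other miRNA. Levels were therefore also given after TMM normalization, a factor per library that sets the bulk of the miRNAs equal, over all 12 libraries. On that scale miR-140, which is enriched in cartilage, was at 10756, 5100, 9818 and 17000.5 RPM in the order CP_0, CP_7, CP_14 and CC. miR-145, which the study followed for its action on SOX9, was at 631, 1006, 615 and 716 RPM in that order. All 3 listed chondrocyte miRNAs had reads in every library, but their summed deposited level was much the same everywhere, from 9043 to 11415 RPM. After normalization, CC exceeded CP_14 in miR-140 by 0.78 on the log2 scale (SE 0.053, adjusted p = 1.23e-06 by limma) and in miR-455-5p, another cartilage miRNA, by 1.23 (SE 0.077, adjusted p = 6.97e-07 by limma), while miR-455-3p was at 0.19 (adjusted p = 0.199 by limma).

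Some libraries stood apart from their groups, and markers of other cell types differed between groups. CP_0 replicate 3 held 6933 reads of miR-451 and 8312 of miR-486, both abundant in red blood cells, where CP_0 replicates 1 and 2 held 27 and 29 reads of miR-451 and 7 and 20 of miR-486. Every CP_14 and CC library held between 6039 and 6619 reads of miR-451 although their depths differed, whereas the CP_7 libraries held 8, 17 and 2. The summed level of the 7 listed blood miRNAs was 23.4 to 163 RPM at day 7, against 3508 to 5200 in CP_14 and 1394 to 1468 in CC, and it was 17.2, 14.4 and 4223 RPM in the CP_0 libraries. miR-486 was the most abundant of the list in all libraries but CP_0 replicates 1 and 2, where miR-451 was. Over miRNAs with a mean of at least 10 reads, CP_0 replicate 3 correlated with CC replicate 3 at Spearman rho = 0.955. Its correlation with the least similar library of its own group was as close (0.953). Among the CP_7 libraries, replicate 1 held 1430 reads of miR-9-5p, a neural miRNA, against 111 and 76 in replicates 2 and 3. The 4 listed neural miRNAs, mostly miR-9-5p and miR-128, summed to 3522, 358 and 371 deposited RPM in CP_7, and to 113 to 273 in the libraries of the other groups. After TMM normalization only replicate 1 of CP_7 stood above those libraries. The neural miR-124a had 9 reads in CP_7 replicate 1 and at most 2 in any other library. The 2 listed endothelial miRNAs, led by miR-126-3p, summed to 188, 323 and 3083 RPM in CP_7, above every library of CP_0 (47.1 to 63.6), CP_14 (57.4 to 83.6) and CC (28.4 to 38.5). The skeletal muscle list was higher at day 7 too, with a summed level of 4536 to 6633 RPM in CP_7 against 535 to 683 in CP_0, 1685 to 1756 in CP_14 and 719 to 752 in CC, led by miR-1. The 6 listed epithelial miRNAs summed to 3.90 to 16.7 RPM at day 7, against 27.3 to 41.0 in CP_0, 35.4 to 46.2 in CP_14 and 12.6 to 15.5 in CC. The 6 listed mesenchymal miRNAs, led by miR-143, summed to 141319 to 166702 RPM in CP_0 and 115904 to 147199 in CP_7. They summed to 215511 to 289628 in CP_14 and 42330 to 58015 in CC. From CP_0 to CP_7, miR-143 and miR-214 of that list fell (log2 fold change -1.70 and -0.64 by limma). miR-145, miR-199a-5p and miR-199a-3p rose (0.69, 0.59 and 1.11), and miR-199b was not called (-0.09). In CP_7, where miR-29 was highest, the blood list was thus low, as in CP_0 replicates 1 and 2. There the endothelial and muscle lists were high. These sums are deposited RPM, and TMM normalization divides them by a mean factor of 1.92 in CP_7. In CP_0, CP_14 and CC the mean factor was 0.88, 0.99 and 0.60. After that division the epithelial list was lower in CP_7 than in every library of the other groups, CC included. Divided by the factor of each library, the mesenchymal list was also lowest in the CP_7 libraries, with CC nearest. The neural list was then high in CP_7 replicate 1 only. The muscle list was also higher in CP_14 than in CP_0 and CC. The part of these differences in the miR-29 values was not tested, and in bulk samples fewer cells of a type cannot be told apart from less RNA per cell.

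miR-29a made up nearly all of the family. It held between 92.6% and 95.9% of the family's reads in each of the 12 libraries, and it ranked between 24 and 38 among all listed miRNAs. miR-29b followed with 3.57% to 5.73%, and miR-29c, miR-29d-3p and miR-29d-5p together held 0.394% to 1.81%. These are shares of reads, not divided by length. The 5 names together took 0.0987% to 0.114% of all reads in the CP_0 libraries and 0.416% to 0.471% in those of CP_7. The range was 0.134% to 0.138% at day 14, and 0.0681% to 0.0751% in chondrocytes. Of the reads other than miR-21-5p, the share was 0.267% ± 0.0207 (SD, n = 3), 0.567% ± 0.0271, 0.263% ± 0.0236 and 0.285% ± 0.0110 in the order CP_0, CP_7, CP_14 and CC. The high share at day 7 was present on both scales, while the low share of CC was not.

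**Figure D1:**
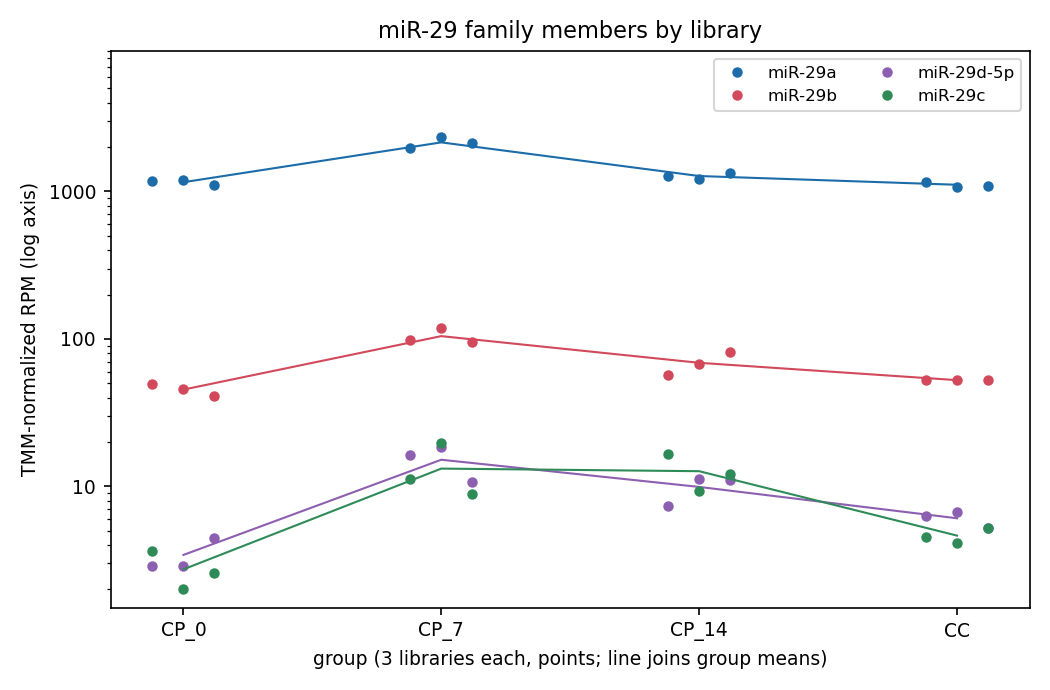
TMM-normalized RPM (log axis) of the 4 members with enough reads to be tested, with a point for each of the 3 libraries in CP_0, CP_7, CP_14 and CC and a line through the group means. miR-29a lies far above the others, and all 4 members are higher in every CP_7 library than in any CP_0 library.

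miR-29a, the main member, was at 1086, 1009 and 945 RPM in the CP_0 libraries and at 3913, 3944 and 4467 RPM in those of CP_7. It was at 1301, 1249 and 1238 RPM in CP_14 and at 651, 643 and 710 RPM in CC. The 4 groups did not overlap on this deposited scale, with CP_7 highest and CC lowest. After TMM normalization the group mean was 1155 ± 45.8 RPM for CP_0 (SD, n = 3), 2152 ± 182 for CP_7, 1272 ± 51.9 for CP_14 and 1110 ± 47.8 for CC. CP_7 stood alone on this scale, whereas the other 3 groups lay within 1074 to 1324 RPM and the CC and CP_0 libraries overlapped.

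**Figure D2:**
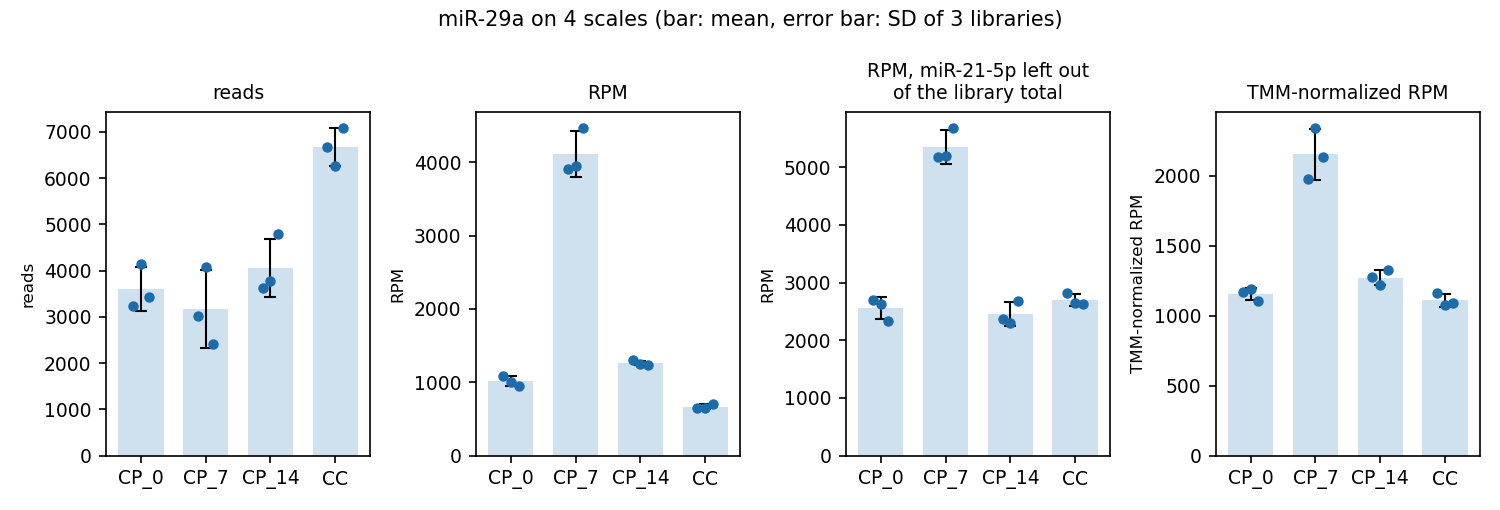
miR-29a on 4 scales, with a panel each for recovered reads, deposited RPM, RPM on totals without miR-21-5p, and TMM-normalized RPM. Bars are the mean and error bars the SD of the 3 libraries (points) in each group. CP_7 is highest on the 3 scales that allow for depth, and the order of CP_0, CP_14 and CC changes between them.

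miR-29b was at 49.3, 45.6 and 41.1 TMM-normalized RPM in CP_0 and at 98.5, 119 and 95.7 RPM in CP_7. It was at 57.1, 67.5 and 81.9 RPM in CP_14 and at 52.7, 52.6 and 52.3 RPM in CC. Each CP_7 library was above all others, and each CP_14 library was above all CC and CP_0 libraries.

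The rarer members rested on few reads. For miR-29c these were 10, 7 and 8 at day 0, 17, 34 and 10 at day 7, 47, 29 and 44 at day 14, and 26, 24 and 34 for chondrocytes. After TMM normalization its mean was 2.74 ± 0.815 RPM for CP_0 (SD, n = 3), 13.2 ± 5.63 for CP_7, 12.7 ± 3.58 for CP_14 and 4.63 ± 0.565 for CC. The CP_7 and CP_14 libraries of miR-29c overlapped on this scale. On the deposited scale they did not, with 22.1, 32.9 and 18.5 RPM at day 7 and 16.8, 9.59 and 11.4 RPM at day 14.

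miR-29d-5p had 8, 10 and 14 reads at day 0, 25, 32 and 12 at day 7, 21, 35 and 40 at day 14, and 36, 39 and 34 for chondrocytes. Its TMM-normalized mean was 3.43 ± 0.927 RPM for CP_0, 15.2 ± 4.04 for CP_7, 9.91 ± 2.21 for CP_14 and 6.07 ± 0.751 for CC. It was highest in CP_7 and lowest in CP_0, with CP_14 and CP_7 overlapping on this scale. With TMM factors from these groups alone, as in the pairwise fit, the CP_14 and CP_7 libraries did not overlap. On the deposited scale they did not overlap, with 32.5, 31.0 and 22.2 RPM at day 7 and 7.52, 11.6 and 10.3 RPM at day 14.

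The opposite arm, miR-29d-3p, was read only in CP_14, with 2, 4 and 3 reads in the 3 libraries and none in the other 9. It passed the filter on low values in no comparison and was not tested. Against the 3 reads that a count of 0 allows over a whole group, its share in CP_14 was at least 3.32-fold higher than in CP_0 and at least 9.28-fold higher than in CC on the RPM scale. These bounds take the 9 reads of CP_14 as counted and leave out the counting error of those reads. Against the shallower CP_7 libraries no difference was detectable, since a count of 0 there allows up to 1.28 RPM.

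The groups were compared in pairs, beginning with the first week of induction. All 4 members tested rose from day 0 to day 7, and no member's libraries overlapped between the groups. Of the 246 miRNAs tested in this comparison 63.8% were called, 35.8% higher and 28% lower, and the groups did not overlap for 67.9%. miR-29a rose by 0.95 on the log2 scale (standard error, SE, 0.082, adjusted p = 5.88e-05 by limma with Benjamini-Hochberg adjustment over all miRNAs tested). miR-29b rose by 1.24 (SE 0.15, adjusted p = 0.0003 by limma). The rarer miR-29c and miR-29d-5p rose by 1.99 (SE 0.37, adjusted p = 0.00228 by limma) and 1.96 (SE 0.32, adjusted p = 0.00147 by limma). Both passed the filter on low values only through the CP_7 libraries, where they are high, so a rise was favoured by how they were admitted. The median over the 4 members was 1.60, against 0.075 over all tested miRNAs. It is lifted by miR-29c and miR-29d-5p, so no conclusion was drawn from it.

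The rise held without CP_0 replicate 3, at 0.89, 1.15, 1.96 and 2.13 for miR-29a, miR-29b, miR-29c and miR-29d-5p, with limma adjusted p of 0.000312, 0.00122, 0.00987 and 0.00384. For miR-29a the log2 fold change was 2.02 by library size alone, 1.07 on totals without miR-21-5p and 0.60 with upper-quartile factors, and it was called under each. By library size alone miR-29b was at 2.30. The scalings moved the median of all tested miRNAs as well, to 1.12, 0.17 and -0.24. Set against that median, miR-29a rose by 0.84 to 0.90 under every scaling tried. A change of scaling moves all miRNAs of a library together, so a narrow range is built into this last measure.

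**Figure D3:**
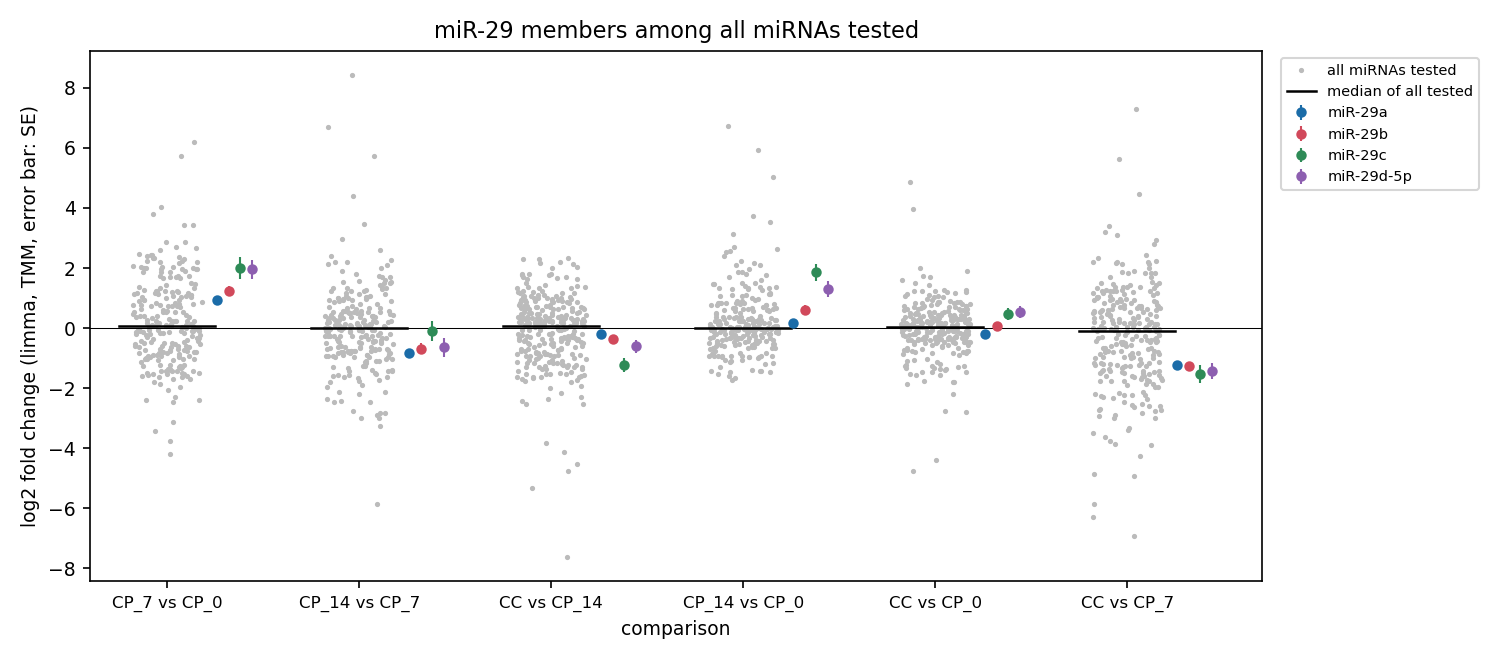
log2 fold change by limma of every miRNA tested (grey points) in each of 6 comparisons, with the median of all tested (black line) and the 4 miR-29 members with the SE of each (coloured). The 4 members lie above the median in CP_7 vs CP_0 and below it in CC vs CP_14 and CC vs CP_7.

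From day 7 to day 14, 2 of the 4 members fell and 2 did not pass the test. Here 52.8% of 246 miRNAs were called and 28.5% were called lower, and groups did not overlap for 62.2%. miR-29a fell by 0.83 on the log2 scale (SE 0.073, adjusted p = 9.46e-05 by limma). miR-29b fell by 0.68 (SE 0.18, adjusted p = 0.0144 by limma), a call that was lost without CP_7 replicate 2 (-0.51, adjusted p = 0.079 by limma) or without CP_14 replicate 2 (adjusted p = 0.0541). By library size alone miR-29a was at -1.70 and miR-29b at -1.54. The log2 fold change of miR-29d-5p was -0.64 (95% confidence interval -1.36 to 0.083, adjusted p = 0.117 by limma). By library size alone it was at -1.45, where the median of all tested was -0.84.

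miR-29c had a log2 fold change of -0.09 between day 14 and day 7, with a 95% confidence interval from -0.88 to 0.70 that also holds the fall of miR-29a (adjusted p = 0.836 by limma). Its sign changed with upper-quartile factors and without CP_7 or CP_14 replicate 2. By library size alone miR-29c was at -0.90, where the median of all tested was -0.84. This comparison shares the CP_7 libraries with the preceding comparison, so the rise and the fall are not independent.

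Chondrocytes were then set against the last stage of induction. All 4 members tested were lower in CC than in CP_14, where 74.6% of 276 miRNAs were called, 37% were called lower and groups did not overlap for 78.6%. miR-29c was lower by the most, with a log2 fold change of -1.22 (SE 0.23, adjusted p = 0.00107 by limma), and this call held under every alternative, at -0.77 with a pseudocount of 5 RPM. For miR-29a the log2 fold change was -0.21 (SE 0.057, adjusted p = 0.0092 by limma), for miR-29b -0.38 (SE 0.14, adjusted p = 0.0323) and for miR-29d-5p -0.60 (SE 0.22, adjusted p = 0.0303).

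The small differences of miR-29a, miR-29b and miR-29d-5p between CC and CP_14 turned on the scaling, and those of miR-29b and miR-29d-5p also on single libraries. On totals without miR-21-5p miR-29a was at 0.14, on the other side of 0 (adjusted p = 0.125 by limma), and with upper-quartile factors it was at -0.03. The median of all tested miRNAs moved to 0.49 and 0.25 under these scalings, and relative to it miR-29a was lower by 0.28 to 0.38 under every scaling tried. miR-29b was at -0.04 and -0.21 and miR-29d-5p at -0.33 and -0.45 under the same pair of scalings, none of them called (adjusted p = 0.0982 to 0.844 by limma). By library size alone all 3 were further from 0, at -0.92, -1.07 and -1.20, where the median of all tested was -0.54. miR-29a kept its call when any of the 6 libraries was left out. miR-29b lost its call when CP_14 replicate 2 or 3 or any CC library was left out (adjusted p = 0.0662 to 0.075 by limma), with log2 fold changes down to -0.26 without CP_14 replicate 3. miR-29d-5p lost its call without CP_14 replicate 2 or 3 or CC replicate 1 or 3 (adjusted p = 0.0597 to 0.105 by limma). Its call was also lost with DESeq2, with no filter on low values, in a fit of all 12 libraries and with the replicate block. The fit of all 12 libraries and the block also removed the call of miR-29b.

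Against day 7, chondrocytes were lower in all 4 members, in a comparison where 67.4% of 276 miRNAs were called, 38.4% were called lower and groups did not overlap for 70.7%. The log2 fold changes were -1.23 for miR-29a (SE 0.057, adjusted p = 3.17e-06 by limma), -1.24 for miR-29b (SE 0.12, adjusted p = 8.63e-05), -1.52 for miR-29c (SE 0.30, adjusted p = 0.00358) and -1.42 for miR-29d-5p (SE 0.27, adjusted p = 0.00299). Without CP_7 replicate 2 the values were -0.64, -0.63, -0.75 and -0.79, and miR-29c and miR-29d-5p were no longer called (adjusted p = 0.0609 and 0.0775 by limma). Without CP_7 replicate 1 miR-29d-5p was not called either (-0.995, adjusted p = 0.0578). With upper-quartile factors miR-29a and miR-29b were at -0.71 and -0.73, and by library size alone the 4 members were at -2.62, -2.61, -2.71 and -2.65, where the median of all tested was 0.40 and -1.44. All 4 were called under both. Leaving out CP_7 replicate 2 also moved the median of all tested miRNAs from -0.09 to 0.42, and the calls from 80 higher and 106 lower to 120 and 68. Relative to that median the members were at -1.14, -1.15, -1.43 and -1.33 with all libraries and at -1.07, -1.06, -1.17 and -1.22 without CP_7 replicate 2.

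CP_14 and CC were also each set against CP_0. At day 14, 3 of the 4 members were higher than at day 0, where 46% of 250 miRNAs were called, 24.8% were called higher and groups did not overlap for 56.4%. miR-29c was higher by 1.86 (SE 0.29, adjusted p = 0.00163 by limma), miR-29d-5p by 1.30 (SE 0.26, adjusted p = 0.00632) and miR-29b by 0.60 (SE 0.16, adjusted p = 0.0176), the last not called without CP_14 replicate 2 (adjusted p = 0.0602). Nor was miR-29b called with upper-quartile factors (0.35, adjusted p = 0.158 by limma), on totals without miR-21-5p (0.39, adjusted p = 0.109) or with the replicate block. miR-29c and miR-29d-5p passed the filter on low values only through CP_14, where they are high, so a difference in that direction was favoured. With a pseudocount of 5 RPM both differences were smaller but still called. The log2 fold change of miR-29a was 0.16 (95% confidence interval 0.0042 to 0.31, adjusted p = 0.0812 by limma).

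In CC, miR-29a was the only member called against CP_0, at -0.19 (SE 0.043, adjusted p = 0.0103 by limma), where 55.8% of 260 miRNAs were called, 30% higher and 25.8% lower, and groups did not overlap for 63.1%. miR-29b was at 0.08 (95% confidence interval -0.13 to 0.29), miR-29c at 0.47 (-0.017 to 0.96) and miR-29d-5p at 0.55 (0.056 to 1.03), with adjusted p of 0.461, 0.0915 and 0.0592 by limma. miR-29d-5p was called without CP_0 replicate 3 (0.70, adjusted p = 0.0183). On totals without miR-21-5p, miR-29b, miR-29c and miR-29d-5p were at 0.35, 0.82 and 0.90, where the median of all tested was 0.32.

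Neither of these results for miR-29a was firm. When TMM factors were computed from the tested miRNAs in place of all listed miRNAs, a choice made after both sets of results had been seen, the log2 fold change of miR-29a was 0.18 for CP_14 against CP_0 and was called (adjusted p = 0.0206 by limma), whereas that for CC against CP_0 was -0.19 and was not (adjusted p = 0.0733). On totals without miR-21-5p they were -0.06 and 0.08, of the opposite sign. The call for CC against CP_0 was also lost without CP_0 replicate 1 (adjusted p = 0.0652) or CP_0 replicate 2 (adjusted p = 0.061).

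In order of TMM-normalized level, CP_7 was therefore highest for each of the 4 members, and CP_14 came second. For miR-29c and miR-29d-5p the neighbours CP_7 and CP_14 were not called different. CC and CP_0 were lowest for all 4. On this scale and with all libraries they were not called different for miR-29b, miR-29c and miR-29d-5p. The order of CP_14, CP_0 and CC for miR-29a depended on the scaling.

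Since a ratio within a library does not depend on scaling, the minor members were also set against miR-29a in the same library. miR-29b had 4.21%, 3.82% and 3.72% as many reads as miR-29a at day 0, 4.98%, 5.09% and 4.48% at day 7, 4.49%, 5.53% and 6.19% at day 14, and 4.52%, 4.90% and 4.79% for chondrocytes. CP_0 lay below every other library, and the other 3 groups overlapped. An exact permutation test of the F statistic over all 369600 assignments of the 12 libraries to the groups gave p = 0.0174. That p rose to 0.0679 without CP_0 replicate 2 and to 0.0827 without CP_0 replicate 3, by the same exact test.

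The ratios of miR-29c and miR-29d-5p, with as few as 7 and 8 reads in a library, were added after the data had been seen. The plan was for ratios within the same arm. The name of miR-29a gives no arm, so the ratio of miR-29d-5p may compare different arms. As group means over 3 libraries, miR-29c had 0.237%, 0.605%, 0.994% and 0.418% as many reads as miR-29a in the order CP_0, CP_7, CP_14 and CC, with an exact permutation p of 0.000519 and 0.00156 after Benjamini-Hochberg adjustment over the 3 ratios. For miR-29d-5p the means were 0.299%, 0.705%, 0.780% and 0.548% (exact permutation p = 0.00545, adjusted 0.00818), and the adjusted p for miR-29b stayed at 0.0174. The 2 ratios were thus unequal across the groups, with CP_0 lowest and CP_14 highest. The libraries of CP_7 and CP_14 overlapped in both ratios.

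**Figure D4:**
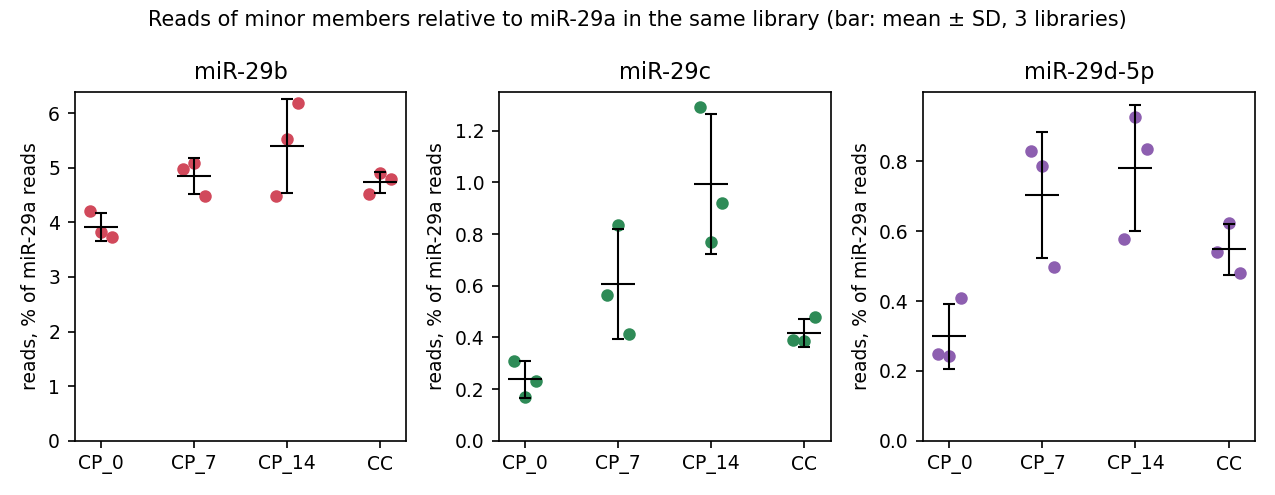
Reads of miR-29b, miR-29c and miR-29d-5p as a percentage of miR-29a reads in the same library (points), with the mean and SD of 3 libraries per group (bars) and axes that start at 0. All 3 ratios are lowest on average in CP_0 and highest in CP_14, and miR-29c falls back to 0.418% in CC.

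Across the 12 libraries, log2 TMM-normalized levels of miR-29a and miR-29b had a Pearson r of 0.91, miR-29b and miR-29d-5p of 0.91, and miR-29a and miR-29c of 0.65. These are descriptions over libraries that fall into 4 groups and share their depth and composition within a group. The authors' counting of reads that match several members is not given in the sources used here, so the split of reads among the closely related miR-29a, miR-29b and miR-29c is uncertain, though no listed name had reads within 1% of a member in every library.

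The miRNAs whose pattern over the 12 libraries was most like miR-29a, among 280 compared, were novel_37 (Pearson r = 0.98), novel_342 (0.98), novel_272 (0.97), miR-656 (0.96) and miR-155 (0.95), the last an abundant miRNA of immune and inflammatory responses. In the order CP_0, CP_7, CP_14 and CC, novel_37 had a mean of 47.6, 758, 81.6 and 29.2 TMM-normalized RPM, and miR-155 had 715, 2847, 1061 and 872. novel_272 and miR-656 were rare, at a mean of 7 reads per library in CP_7 and at most 3.33 elsewhere. Since miR-29a is highest in CP_7, a high level there follows from how these miRNAs were chosen.

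miR-181b (Pearson r = 0.96), miR-30b-5p (0.96) and miR-155 (0.95) were most like miR-29b. miR-30b-5p was at a mean of 86.3, 310, 153 and 79.3 TMM-normalized RPM in that order, and miR-181b at 118, 848, 433 and 167. Both kept more of their day 7 level at day 14 than novel_37 did. By library size alone, novel_37 was still the nearest to miR-29a (0.99), while the others were miR-22-5p, miR-221, miR-222 and miR-2284x. By Spearman rho on the TMM-normalized scale, miR-221 was nearest to miR-29a (0.98).

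**Figure D5:**
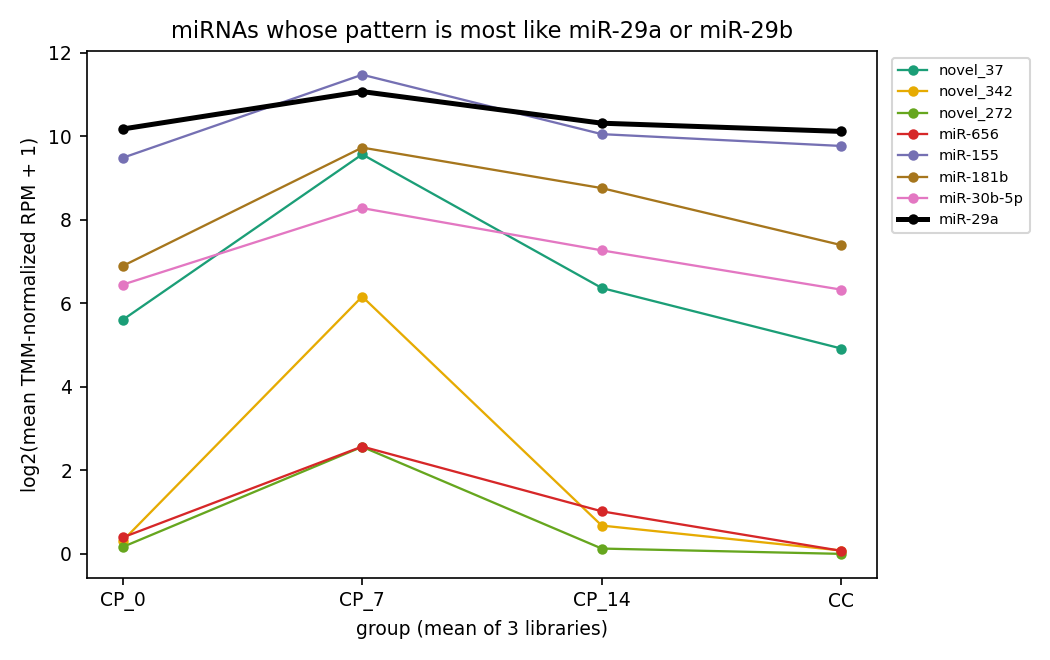
Group means of TMM-normalized RPM, as log2(mean + 1), for miR-29a (thick black line) and the 7 miRNAs most like miR-29a or miR-29b over the 12 libraries. The shared high level in CP_7 follows from how they were chosen, and novel_342, novel_272 and miR-656 are close to 0 in CP_0 and CC.

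Other miRNAs linked to matrix and cartilage, a list of 46 names that includes let-7, miR-30, miR-133, miR-140, miR-143, miR-145, miR-199 and miR-200, did not share a single direction. Of 41 tested between CP_7 and CP_0, 21 rose, 12 fell and 8 did not pass (median log2 fold change 0.33, all tested 0.075), so that 80.5% of these 41 were called against 63.8% of all tested. miR-133b, a muscle miRNA, had the largest rise, at 2.39 (SE 0.82, adjusted p = 0.0369 by limma), with 4, 17 and 37 reads in the CP_7 libraries and 2, 3 and 9 in those of CP_0. It passed the filter on low values only through CP_7, where it is high, so its rank was favoured by that choice. miR-200a, which is known for keeping epithelial identity, fell most. It had 35, 41 and 77 reads in CP_0 and 0, 1 and 1 in CP_7, a share 16.7-fold lower (95% exact counting interval 4.55 to 139). Here the filter was passed only through CP_0, where miR-200a is high, so its rank was favoured too.

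Between CP_14 and CP_7, 10 of 42 of these miRNAs rose and 23 fell (median -0.40, all tested -0.01), with 78.6% called against 52.8% of all tested. let-7c, of a family that rises with differentiation, fell by 2.45 on the log2 scale (SE 0.15, adjusted p = 1.53e-05 by limma), from 2761, 1874 and 2551 deposited RPM to between 223.5 and 243. It had been at 291, 257 and 275 RPM in CP_0, so that let-7c too was highest in the day 7 libraries. miR-200a, with 74, 80 and 76 reads in CP_14, had the largest rise, a share 27.8-fold higher than in CP_7 (95% exact counting interval 7.61 to 231). Again it passed the filter only through the group where it is high.

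Between CC and CP_14, 22 of 44 were higher in CC and 12 lower (median 0.25, all tested 0.086), with 77.3% called against 74.6% of all tested. All 4 tested miR-29 members were lower there. miR-143, a smooth muscle and mesenchymal miRNA, was the lowest in CC, at -1.81 (SE 0.11, adjusted p = 6.86e-07 by limma), with 275313, 267072 and 202609 RPM in CP_14 and 35723, 43299 and 50862 in CC. miR-30e-5p was the highest, at 2.13 (SE 0.17, adjusted p = 3.41e-06 by limma), with 292, 322 and 449 RPM in CP_14 and 961, 961 and 883 in CC. The groups did not overlap for either miRNA. The list's remaining counts were 12 higher and 10 lower of 42 for CP_14 against CP_0, 23 and 9 of 42 for CC against CP_0, and 14 and 18 of 42 for CC against CP_7. The shares called were 52.4%, 76.2% and 76.2%, against 46%, 55.8% and 67.4% of all tested.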

How the data were processed

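Small RNA libraries (NEBNext kit, Illumina NovaSeq) were processed by the authors, and the submitters' processing notes name CASAVA, bcl2fastq 1.8.4 and Bowtie. For trimming, counting and the miRNA database nothing further is given in the sources used here. The authors deposited RPM values for each library under the header TPM, and every value was a whole multiple of 1 read within 0.01 read. Each pair of groups was fitted with limma 3.58.1 (trend, two-sided, R 4.3.3) on log2(TMM-normalized RPM + 1), so fold changes understate those of rare miRNAs. TMM factors came from all listed miRNAs, a choice adopted after results with factors from tested miRNAs had also been seen. The filter was filterByExpr of edgeR 4.0.16 (minimum count 10, total 15), with adjusted p below 0.05 called. Alternatives were RLE, upper-quartile and library size factors, totals without miR-21-5p, edgeR and DESeq2 1.42.0 on the recovered reads, no filter, pseudocounts of 0.5 and 5 RPM, all 12 libraries in one fit, the replicate block, at least 2-fold, and leaving out each library. Members, lists and named miRNAs (all members, the nearest patterns, miR-21-5p, miR-140, miR-145, and the extreme calls of the matrix list) were chosen with earlier results of these data known. Deviations of same-numbered libraries correlated above 0.1 in all 3 pairs only for CC against CP_7, where the block changed no miR-29 call. Intervals and floors cover counting error only, since reads here carry no molecular identifiers and may repeat a molecule. The procedure was tested on simulated data.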

Additional observations from a re-analysis of the deposited data

How the results depend on the processing

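The rise of all 4 members at day 7 kept its direction and its call under every alternative, except that miR-29a did not reach a 2-fold change (0.95). For miR-29a the 2-fold requirement also removed the calls for CP_14 against CP_7 (-0.83), CC against CP_14 (-0.21) and CC against CP_0 (-0.19). It removed those of miR-29b for CP_14 against CP_0 (0.60), CP_14 against CP_7 (-0.68) and CC against CP_14 (-0.38), as well as that of miR-29d-5p in the last of these (-0.60). With it, the miRNAs called numbered 76, 98, 48 and 51 for CP_14 against CP_7, CC against CP_14, CP_14 against CP_0 and CC against CP_0, where 52.8%, 74.6%, 46% and 55.8% of those tested were called without it. On totals without miR-21-5p, miR-29a changed sign for CC against CP_14 (0.14), CP_14 against CP_0 (-0.061) and CC against CP_0 (0.080). With upper-quartile factors it was at -0.032, -0.096 and -0.15, and miR-29c was at 0.042 for CP_14 against CP_7. By library size only, miR-29a was called for CP_14 against CP_0 (0.32) and miR-29b changed sign for CC against CP_0 (-0.32). With TMM factors from the tested miRNAs, miR-29a was at 0.18 for CP_14 against CP_0, now called, and at -0.19 for CC against CP_0, no longer called. In a fit of all 12 libraries it was at -0.058 for CC against CP_0. Leaving out each library gave -0.21 to -0.14 for miR-29a in CC against CP_0, -0.27 to 0.29 for miR-29c in CP_14 against CP_7, and exact permutation p of 0.000455 to 0.0827 for miR-29b over miR-29a. With a pseudocount of 5 RPM, miR-29c and miR-29d-5p were at 1.15 and 0.80 for CP_14 against CP_0, still called, and miR-29d-5p was at -0.38 for CC against CP_14. That last call was lost with DESeq2 (adjusted p = 0.0525) and with no filter on low values (0.0648), and in a fit of all 12 libraries it was lost (0.0678) along with that of miR-29b (0.051). The cause of these changes was not tested.

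By library size only, 152 miRNAs were higher and 20 lower at day 7 than at day 0, in place of 88 and 69 (65 and 87 with upper-quartile factors). The other splits by library size only were 26 and 138 for CP_14 against CP_7 (in place of 60 and 70), 40 and 163 for CC against CP_14 (104 and 102), 76 and 33 for CP_14 against CP_0 (62 and 53), 30 and 112 for CC against CP_0 (78 and 67) and 20 and 191 for CC against CP_7 (80 and 106). On totals without miR-21-5p they were 43 and 87, 138 and 66, 49 and 80, and 108 and 36 for the first 4 of these, and with upper-quartile factors 50 and 91 for CP_14 against CP_0 and 116 and 77 for CC against CP_7. With the replicate block the exact permutation p of the miR-29b ratio was 0.0399, and the block removed the calls of miR-29b in CP_14 against CP_7 (adjusted p = 0.0576 by limma), CC against CP_14 (0.0521) and CP_14 against CP_0 (0.0532) and of miR-29d-5p in CC against CP_14 (0.0589). Outside CC against CP_7 the deviations of same-numbered libraries correlated at -0.29 to 0.13. Such correlations cannot show whether same-numbered libraries share a deer, in any of the comparisons. Depth limits miR-29c and miR-29d-5p, with 7 to 47 reads per library, and miR-29d-3p passed the filter on low values in no comparison.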
